A study of Mus musculus with 12 samples.

Results

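Transcripts of 9 genes for matrix metalloproteinases (MMPs) and their tissue inhibitors (TIMPs) were followed in mouse macrophages loaded with oxidized low-density lipoprotein (oxLDL) and stimulated with lipopolysaccharide (LPS). The genes were taken by symbol: 6 MMPs (Mmp8, Mmp9, Mmp12, Mmp13, Mmp14 and Mmp19) and 3 TIMPs (Timp1, Timp2 and Timp3), 9 of the 43278 symbols in the table. All 9 were in the table, and all 9 passed the filter on low values in every comparison. The cells were peritoneal macrophages (PMφs) of wild-type C57BL/6J mice aged 8 to 12 wk, drawn into the peritoneal cavity with 4% thioglycolate, harvested after 4 d by lavage and used as adherent cells after 18 h in culture. The study's methods state that littermates of both sexes supplied the cells and that these were mixed before they were split into groups. By that account a library stands for a pool of mice. RNA was sequenced from 12 libraries, 3 for each of 4 groups: control (no oxLDL, no LPS), oxLDL (100 µg/ml human medium oxLDL for 24 h), LPS (10 ng/ml ultrapure LPS) and oxLDL+LPS (the same oxLDL for 24 h and then the same LPS). How long LPS was given is not stated for these libraries. These cells model recruited macrophages, and the culture holds no artery wall.

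MMPs are zinc-dependent endopeptidases that are made as inactive proenzymes and cut collagens, elastin and other matrix proteins, as well as cytokines and cell surface proteins. TIMPs bind the active site of MMPs one to one and block it. In atherosclerotic lesions, lipid-laden macrophages are known as a source of MMPs, and the balance of MMPs and TIMPs is a long-standing theme in the thinning of the fibrous cap.

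The values are normalized counts, which are read counts that the authors divided by 1 factor per library and rounded. From the spacing of the values, each library held an implied 16.7 to 26.1 M reads. Macrophage markers, 5 of a list of 6 that were in the table, summed to 225054 to 289425. Il1b, a known target of LPS, was at 7 to 20 in the libraries without LPS and 7630 to 152939 in those with LPS. In oxLDL libraries, Plin2, a lipid droplet coat protein, stood at 32521 to 36138 against 24922 to 25596 in control libraries. The numbering of the libraries was checked with sex-linked genes. Xist, which marks female cells, was at 1 and 2 in the control and oxLDL libraries of number 1 but at 6331 and 3812 in the LPS and oxLDL+LPS libraries of number 1. Libraries numbered 2 had high Xist and a sum of only 0 to 2 over 4 Y-linked genes, and libraries numbered 3 had both Xist and Y-linked genes in all 4 groups. Number 1 is therefore not the same pool with and without LPS, and the effect of LPS on the members is also given below without number 1. The control and oxLDL libraries of number 1 had sums of 3138 and 3009 over the Y-linked genes. These libraries and those of number 2 thus show almost only 1 sex each, which differs from the mix of both sexes in the methods. Nothing in the labels says that the replicates of a group came from separate animals. By the sex genes, the 3 numbers of the control and of the oxLDL libraries were not the same pool. In LPS and oxLDL+LPS libraries number 2 was not the same pool as numbers 1 and 3. The p-values measure the spread between these libraries.

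The promoters of 3 members that moved together with LPS are shown because transcription factors of the AP-1 and ETS families are known to act on MMP and TIMP genes. The stretches run 5′ to 3′ over the 250 bases before the RefSeq start site on GRCm38. Capitals mark a match, on either strand, to TGANTCA (AP-1), to AGGAAGT (ETS) or to GGGNN followed by TTTCC (a κB site), and no match overlapped another.
Mmp13, chr9:7272264-7272513, plus strand: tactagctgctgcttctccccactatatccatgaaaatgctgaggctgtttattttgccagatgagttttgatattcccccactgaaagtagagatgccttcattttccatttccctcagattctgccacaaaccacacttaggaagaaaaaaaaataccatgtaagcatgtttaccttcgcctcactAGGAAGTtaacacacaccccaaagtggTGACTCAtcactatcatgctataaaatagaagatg
Mmp14, chr14:54431348-54431597, plus strand: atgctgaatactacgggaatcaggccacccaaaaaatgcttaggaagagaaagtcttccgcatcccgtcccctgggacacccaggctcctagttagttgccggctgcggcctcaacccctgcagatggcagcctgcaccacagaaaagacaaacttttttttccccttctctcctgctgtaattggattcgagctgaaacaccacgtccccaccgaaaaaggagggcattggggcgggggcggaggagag
Timp1, chrX:20869916-20870165, plus strand: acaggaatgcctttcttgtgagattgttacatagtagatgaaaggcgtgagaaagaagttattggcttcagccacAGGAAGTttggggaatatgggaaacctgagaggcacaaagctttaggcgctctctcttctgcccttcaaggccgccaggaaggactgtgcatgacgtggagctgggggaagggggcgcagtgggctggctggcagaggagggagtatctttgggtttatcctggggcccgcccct

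The Mmp13 stretch held an AP-1 match, TGACTCA, whose first base lay 35 bases before the start site, and an ETS match 62 bases before it. The Timp1 stretch held an ETS match 175 bases before the start site, and the Mmp14 stretch held none of these letters. Promoter stretches were at hand for 7 of the 9 members, all except Mmp9 and Mmp19. Among the others, Mmp8 had an ETS match, Mmp12 had an ETS match before the first of its start sites and an AP-1 match before the other, and Timp2 and Timp3 had no match. Over all 32851 stretches of the same length, 6.75% held the AP-1 letters, 7.69% the ETS letters and 1.41% the κB letters. A match is a run of letters and not a site of binding.

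Macrophage elastase, encoded by Mmp12, was the most abundant of the 9 transcripts in every group. To compare genes, normalized counts were divided by the length of the merged exons in kb. Mmp12 stood at 10513 ± 1782 per kb in control libraries (SD, n = 3) and at 11564 ± 1897 in LPS libraries, above every other member in each library of every group. Timp2 was next in control libraries at 4453 ± 301 per kb, and Mmp19, Mmp14, Mmp8, Timp1, Mmp13, Mmp9 and Timp3 followed, from 738 ± 196 down to 37.6 ± 19.0. In that order Mmp19, Mmp14 and Mmp8 each overlapped the next gene between libraries, as did Mmp13 and Mmp9, whereas Timp1 lay above Mmp13 in all 3 libraries. With LPS the order was different: Mmp14, at 4436 ± 17.3 per kb, passed Timp2, at 2279 ± 107, in all 3 libraries. Mmp13 (1729 ± 678) overlapped Timp2 above it and Timp1 (1355 ± 404) below it. In oxLDL libraries the order was that of the control libraries. In oxLDL+LPS libraries Mmp12, Mmp14 and Timp2 again led without overlap, and Timp1 (875 ± 561), Mmp13 (771 ± 97.3) and Mmp19 (657 ± 437) followed, each overlapping the next.

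**Figure D1:**
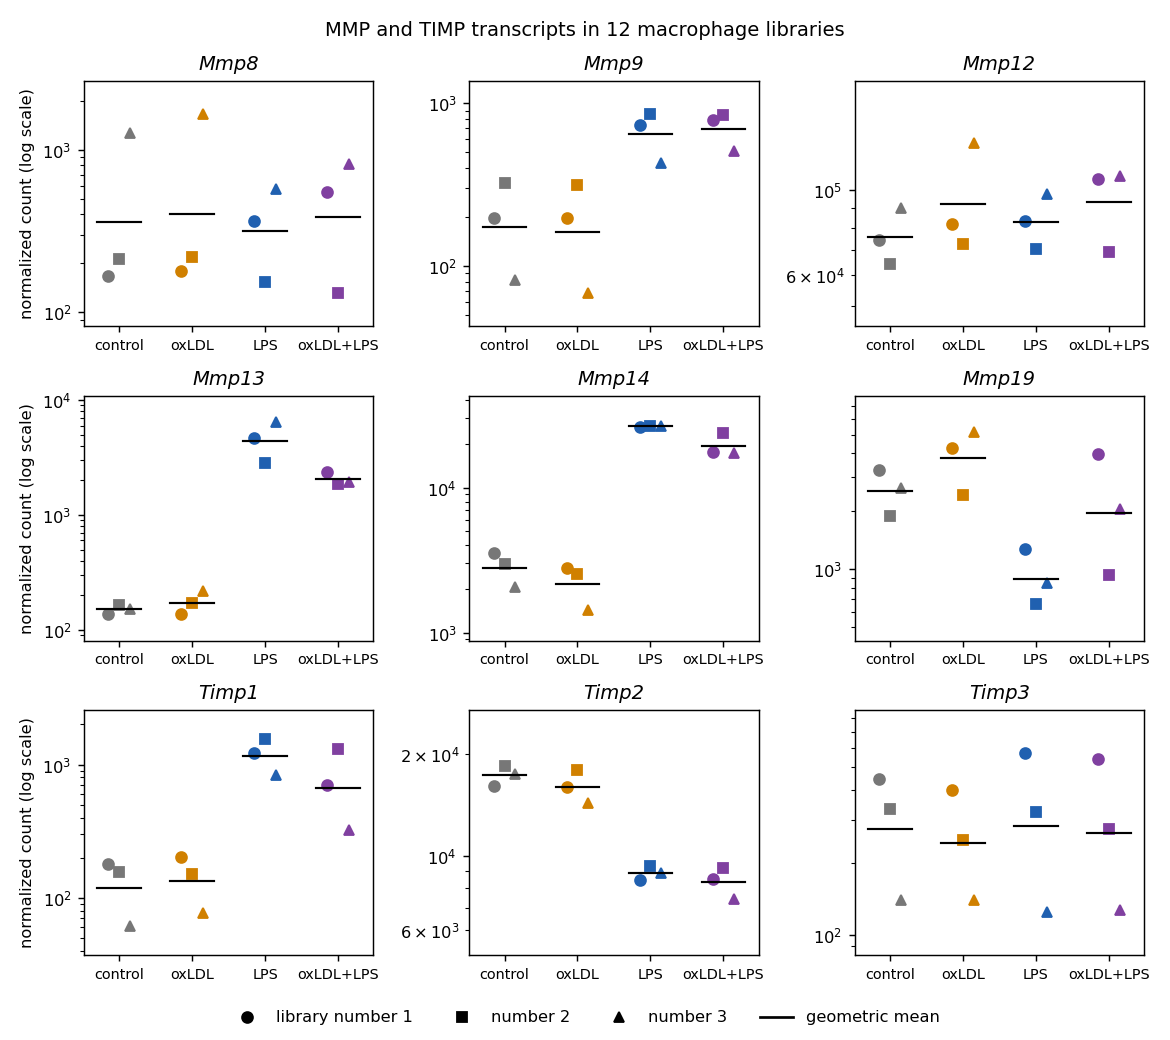
Normalized counts (vertical axes, log scale) of the 9 members in the 12 libraries by group, with the marker shape giving the library number and the line the geometric mean. Mmp13, Mmp14, Timp1 and Mmp9 of the LPS libraries lie above all control libraries, Timp2 and Mmp19 lie below them, and Timp3 separates by number (124 to 140 in number 3) and not by group.

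The first comparison asked how LPS changed these transcripts in PMφs without oxLDL. Of the 9 members, 4 rose (Mmp13, Mmp14, Timp1 and Mmp9) and 2 fell (Mmp19 and Timp2) at an adjusted p under 0.1, with limma and the Benjamini-Hochberg adjustment over all genes. Over all 13006 genes tested, 61.7% were called, 31.4% higher and 30.3% lower, so 6 of 9 is near the background and is no property of the family. The median log2 fold change was 0.14 for the members and 0.00 for all genes.

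Mmp13 encodes collagenase 3, which cuts fibrillar collagen. Its normalized counts were 137, 166 and 152 in control libraries and 4627, 2807 and 6431 in LPS libraries. The groups lay far apart, with number 2 the lowest of the LPS libraries. The means differed 30.5-fold, a log2 fold change of 4.84 ± 0.27 (SE, n = 3 per group, limma adjusted p = 5.13e-06).

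Mmp14 encodes a membrane-anchored MMP that activates the proenzymes of MMP2 and MMP13 at the cell surface. It was at 3546, 2985 and 2055 in control libraries and at 26339, 26433 and 26545 in LPS libraries. The LPS libraries were almost level with each other, while number 3 was the lowest of the control libraries. The means differed 9.24-fold (log2 fold change 3.24 ± 0.19, limma adjusted p = 6.17e-06).

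Timp1, a secreted inhibitor that also binds the proenzyme of MMP9, rose to a similar degree. It was at 179, 155 and 61 in control libraries and at 1222, 1553 and 836 in LPS libraries, a 9.14-fold difference of means (log2 fold change 3.28 ± 0.41, limma adjusted p = 0.000335). Number 3 was the lowest in both groups, and the groups did not overlap. Mmp9, gelatinase B, was at 197, 323 and 82 in control libraries and at 730, 859 and 427 in LPS libraries. It rose 3.35-fold (log2 fold change 1.89 ± 0.48, limma adjusted p = 0.0118), again with number 3 the lowest in both groups.

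Timp2, the inhibitor that links MMP14 to the proenzyme of MMP2, fell. It was at 16117, 18449 and 17486 in control libraries and at 8458, 9288 and 8889 in LPS libraries, a mean 1.95-fold lower (log2 fold change -0.97 ± 0.10, limma adjusted p = 0.000141). The 3 differences between libraries of the same number were -0.93, -0.99 and -0.98 on the log2 scale, the narrowest spread of the 6 called members. Number 1 is not the same pool with and without LPS, so its difference does not lie within a pool. Mmp19, which cuts basement membrane proteins, was at 3283, 1898 and 2642 in control libraries and at 1265, 660 and 850 in LPS libraries. Its mean was 2.82-fold lower (log2 fold change -1.51 ± 0.27, limma adjusted p = 0.00215), and number 2 was the lowest in both groups.

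The other 3 members did not pass the test. Mmp12 was at 74169, 64249 and 89822 in control libraries and at 83256, 70178 and 97626 in LPS libraries, a log2 fold change of 0.14 ± 0.21. Timp3, a matrix-bound inhibitor of MMPs and of ADAM17, was at 446, 333 and 140 against 572, 324 and 124 (0.05 ± 0.60). Mmp8, the collagenase first known from neutrophils, was at 168, 212 and 1274 against 366, 153 and 571 (-0.17 ± 0.79). For all 3 the SE was larger than the difference itself. With the library number as a block in the fit, the same 6 members were called. Without number 1, whose sex genes differed between the groups, all 6 were called as well. In exact two-sided permutation tests of 3 libraries against 3, the 6 called members each reached p = 0.1, the smallest value this design allows. This p restates that their groups did not overlap, and the share of all genes that reach it was not counted. When all libraries were scaled to equal totals, the median of all genes moved by -0.48 on the log2 scale, and the higher and lower calls were 2207 and 7189 in place of 4087 and 3938. All 6 calls kept their direction under that scaling, and Mmp12 and Timp3 turned to -0.35 and -0.43 without being called.

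**Figure D2:**
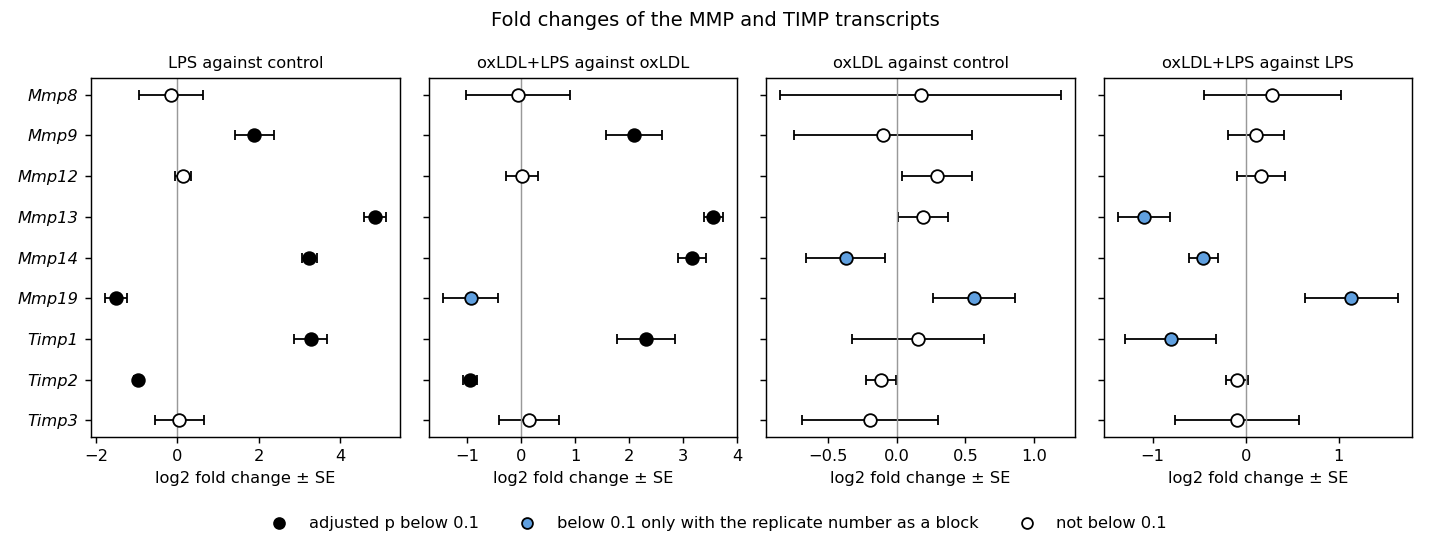
Log2 fold changes with SE (horizontal axes) of the 9 members in 4 comparisons of 3 libraries against 3. Filled black points passed an adjusted p of 0.1 in limma, blue points passed only with the library number as a block, and open points passed neither. Blue points are Mmp13, Mmp14, Mmp19 and Timp1 for oxLDL+LPS against LPS. Mmp14 and Mmp19 for oxLDL against control and Mmp19 for oxLDL+LPS against oxLDL are blue as well.

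In PMφs that had first accumulated oxLDL, LPS raised Mmp13, Mmp14, Timp1 and Mmp9 and lowered Timp2, which are 5 of the 9 members. Of 12883 genes tested, 54.5% were called, 28.1% higher and 26.3% lower. Mmp13 rose from 137, 172 and 218 in oxLDL libraries to 2357, 1875 and 1947 in oxLDL+LPS libraries, 11.7-fold between means (log2 fold change 3.56 ± 0.18, limma adjusted p = 6.5e-06). The oxLDL+LPS libraries lay close together and all lay below the LPS libraries. Mmp14 rose from 2796, 2523 and 1430 to 17574, 23656 and 17264, 8.67-fold between means (3.16 ± 0.26, limma adjusted p = 7.04e-05).

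Timp1 rose from 202, 151 and 77 to 703, 1308 and 320 (log2 fold change 2.31 ± 0.54, limma adjusted p = 0.0102). The oxLDL+LPS libraries of Timp1 spread widely, with number 2 the highest and number 3 the lowest. Mmp9 rose from 198, 315 and 68 to 785, 845 and 508 (2.10 ± 0.52, limma adjusted p = 0.0133). Timp2 fell from 16041, 17911 and 14287 to 8525, 9158 and 7414 (-0.94 ± 0.13, limma adjusted p = 0.000743). None of these 5 members overlapped between the groups, and the share of all genes without overlap was not counted.

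Mmp19 did overlap, at 4275, 2418 and 5135 in oxLDL libraries and 3984, 929 and 2049 in oxLDL+LPS libraries. Its log2 fold change was -0.94 ± 0.52 (limma adjusted p = 0.179), and with the library number as a block the SE was 0.25 and the adjusted p 0.018. Number 1, whose pools differ by sex genes, showed a difference of -0.10, against -1.38 and -1.33 in numbers 2 and 3. Without the oxLDL+LPS library of number 1, Mmp19 was called with no block (-1.44, adjusted p = 0.0338), as it was with all libraries at equal totals (-1.33, adjusted p = 0.0641), and the call with the block was lost without number 3 (adjusted p = 0.119). With the block, 63.4% of all genes were called, 32.0% higher and 31.4% lower, and 6 of 9 members were called. Mmp8, Mmp12 and Timp3 were at -0.05 ± 0.97, 0.01 ± 0.30 and 0.15 ± 0.56 and were not called in either fit.

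The next comparison asked what oxLDL did without LPS. Without the block, limma called 0.0% of 12734 genes, and 379 genes had an unadjusted p under 0.05. Libraries of the same number shared a large part of their deviation, and with the number as a block 4.7% of genes were called, 1.79% higher and 2.91% lower. Of the 9 members, 2 were called with the block: Mmp14 lower and Mmp19 higher. Mmp14 was at 3546, 2985 and 2055 in control libraries and 2796, 2523 and 1430 in oxLDL libraries, with differences of -0.34, -0.24 and -0.52 on the log2 scale in numbers 1, 2 and 3. The log2 fold change was -0.37, with an SE of 0.05 with the block (adjusted p = 0.00694) and of 0.29 without it (adjusted p = 1). Mmp19 was higher in each number, by 0.38, 0.35 and 0.96, from a mean of 2608 ± 693 to 3943 ± 1389. Its log2 fold change was 0.56, with an SE of 0.09 with the block (adjusted p = 0.0127) and of 0.30 without it (adjusted p = 1). Both members were called with the block when any one number was left out. Such a fit held 2 libraries per group, and its p-values leaned mostly on the spread of all genes. Without number 3 the smallest limma adjusted p over all genes was 1.52e-116, so the held calls are a weak check.

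The remaining 7 members were not called in either fit. Mmp12 was higher in all 3 oxLDL libraries than in the control library of the same number, at 81707, 72617 and 132902 (log2 fold change 0.29, SE 0.11 with the block, adjusted p = 0.194). Mmp13 was at the same value, 137, in both libraries of number 1 and differed by 0.05 and 0.52 in the others. Timp1, Timp2 and Timp3 were at 0.16 ± 0.48, -0.11 ± 0.11 and -0.19 ± 0.50, Mmp9 at -0.10 ± 0.65 and Mmp8 at 0.17 ± 1.02.

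The central comparison was oxLDL+LPS against LPS, which asks how accumulated oxLDL changed the response to LPS. Without the block limma called 0.0% of 12769 genes, with 890 at an unadjusted p under 0.05. With the block it called 13.2%, 4.41% higher and 8.75% lower, and 4 of 9 members: Mmp13, Timp1 and Mmp14 were lower and Mmp19 was higher. The 3 lower members are among those that LPS raised, and Mmp19 is one that LPS lowered. The LPS libraries enter both comparisons, so the opposite signs are not independent.

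Mmp13 was at 4627, 2807 and 6431 in LPS libraries and 2357, 1875 and 1947 in oxLDL+LPS libraries. No oxLDL+LPS library reached the lowest LPS library, and each number was lower, with differences of -0.97, -0.58 and -1.72 on the log2 scale. The mean was 2.24-fold lower (log2 fold change -1.09), with an adjusted p of 0.00978 with the block (SE 0.17) and of 0.699 without it (SE 0.28). An exact two-sided permutation test gave p = 0.1, the smallest possible, and the share of all genes that reach it was not counted.

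Mmp14 was at 26339, 26433 and 26545 in LPS libraries and 17574, 23656 and 17264 in oxLDL+LPS libraries. The groups did not overlap, though the share of all genes without overlap was not counted, and the difference was smallest in number 2. The mean was 1.36-fold lower (log2 fold change -0.45), with an adjusted p of 0.0568 with the block (SE 0.12) and of 0.699 without it (SE 0.16).

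Timp1 was at 1222, 1553 and 836 in LPS libraries and 703, 1308 and 320 in oxLDL+LPS libraries. The groups overlapped, but each number was lower, with differences of -0.80, -0.25 and -1.38. The log2 fold change was -0.81, with an adjusted p of 0.025 with the block (SE 0.17) and of 0.76 without it (SE 0.49). Mmp19 was at 1265, 660 and 850 in LPS libraries and 3984, 929 and 2049 in oxLDL+LPS libraries, 2.51-fold higher between means and higher in each number, by 1.65, 0.49 and 1.27. Its log2 fold change was 1.14, with an adjusted p of 0.00931 with the block (SE 0.17) and of 0.71 without it (SE 0.50).

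In these 4 members number 2 moved the least with oxLDL, and it is the number with almost no Y-linked counts. The part of sex in this was not tested. With number 2 left out, all 4 calls with the block held, and the log2 fold changes were -1.35 for Mmp13, -0.60 for Mmp14, -1.09 for Timp1 and 1.46 for Mmp19. That fit held 2 libraries per group, and its smallest limma adjusted p over all genes was 2.26e-195. The held calls are therefore a weak check. With number 1 left out no call held (adjusted p from 0.117 for Mmp19 to 0.403 for Mmp14), and with number 3 left out none held either (0.340 to 0.400), with 70 and 0 of all genes called. The directions were the same in each case.

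The other 5 members were not called. Mmp9 was at 730, 859 and 427 in LPS libraries and 785, 845 and 508 in oxLDL+LPS libraries, a log2 fold change of 0.11 with an SE of 0.08 with the block (adjusted p = 0.47). Timp2 was at -0.09 (SE 0.09), Timp3 at -0.09 (SE 0.10), Mmp12 at 0.17 (SE 0.17) and Mmp8 at 0.29 (SE 0.15) in the same fit.

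**Figure D3:**
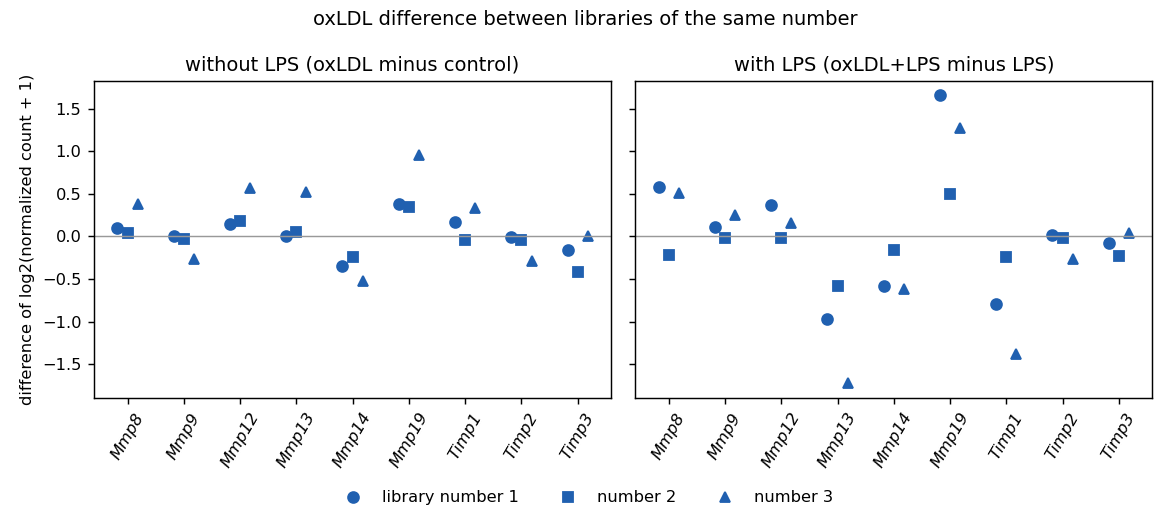
Difference in log2(normalized count + 1) between libraries of the same number (vertical axis) for each member, without LPS on the left and with LPS on the right, with the marker shape giving the number. With LPS, Mmp13, Mmp14 and Timp1 lie below 0 and Mmp19 above 0 in all 3 numbers, and number 2 lies nearest to 0 for all 4.

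Whether the effect of oxLDL differed with and without LPS was tested as an interaction over all 12 libraries. Limma called 0.0% of 13465 genes without a block (416 at an unadjusted p under 0.05) and 0.0% with the number as a block (967 at an unadjusted p under 0.05). With a block for the number within each LPS state, as the sex genes of number 1 ask for, 1.04% of genes were called, 0.379% higher and 0.661% lower. Mmp13 was the 1 member among them, with a log2 effect of oxLDL that differed by -1.28 with LPS from that without it (SE 0.24, adjusted p = 0.0672). The call was lost without number 1 (adjusted p = 0.688) and without number 3 (0.544), and without number 2 the adjusted p was 0.00402. For Timp1 the difference was -0.96 (SE 0.24, adjusted p = 0.121), and for Mmp19 it was 0.58 (SE 0.25, adjusted p = 0.339). The effect of oxLDL on Mmp14 was -0.37 without LPS and -0.45 with LPS (difference -0.09, SE 0.13, adjusted p = 0.809).

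Timp3, Mmp8 and Mmp12 differed more between library numbers than between groups. Number 1 is taken here as a single number, though its pool differs with and without LPS. Timp3 was at 400 to 572 in the 4 libraries of number 1, 248 to 333 in those of number 2 and 124 to 140 in those of number 3, with no overlap. The numbers held 95.7% of its variance on the log2 scale and the groups 1.33%. Mmp8 was at 571 to 1661 in number 3 and at 131 to 546 in the other libraries, with 78.0% of its variance between numbers and 1.2% between groups. Mmp12 was highest in number 3 and lowest in number 2 in all 4 groups (68.8% between numbers). Mmp9 and Timp1 were lowest in number 3 in all 4 groups. They had 26.6% and 13.8% of their variance between numbers, but 68.9% and 83.4% between groups. For Mmp13, Mmp14 and Timp2 the groups held 98.1%, 96.9% and 95.5%.

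Among the marker sums of other cells, that of mesothelial cells and fibroblasts separated by number. Its 10 markers all reached 10 in at least 1 library and summed to 18534 to 32024 in number 1, 14620 to 17623 in number 2 and 5432 to 6310 in number 3. Col1a1 and Col1a2 made up most of this sum, and not all 10 markers followed it. In control libraries Wt1 was at 293, 309 and 89, and in oxLDL libraries Msln was at 11, 8 and 11. Upk3b, at 262, 152 and 46 in control libraries, fell from number 1 to number 3 as the sum did. The sum ran from 5821 to 25130 in control libraries, 6108 to 20655 in oxLDL libraries, 6310 to 32024 in LPS libraries and 5432 to 18534 in oxLDL+LPS libraries. Fibroblasts are known to make Timp1, Timp3 and Mmp14, and the part of such cells in these transcripts was not tested. In number 1 this sum was 32024 in the LPS library and 18534 in the oxLDL+LPS library, in which Timp1, Mmp14 and Mmp13 were also lower, whereas in number 2 it was 15014 and 16488 and in number 3 it was 6310 and 5432.
For neutrophils, the usual source of Mmp8 and Mmp9, 6 of 11 markers were under 10 in every library, among them S100a9, Ly6g, Mpo and Elane. Ly6g was at 0 in all 12 libraries. S100a8, another of the 11 and an abundant neutrophil transcript, was at 31 to 248 and was highest in number 3 in all 4 groups, as Mmp8 was. It was at 31, 34 and 37 in control libraries and 36, 31 and 49 in oxLDL libraries. In LPS libraries it was at 74, 97 and 178 and in oxLDL+LPS libraries at 134, 118 and 248. Ltf and Cxcr2, also of the 11, went the other way. They were at 6, 25 and 15 and at 38, 43 and 38 in control libraries, highest in number 2. In LPS libraries both were at 2, 2 and 1. The part of neutrophils in the values of Mmp8 and Mmp9 was not tested. The neutrophil sum, 1144 to 1868 without LPS and 2556 to 6400 with it, was mostly Csf3r. The eosinophil sum was mostly Siglecf, and 3 of its 5 markers, Epx, Prg2 and Ear6, were under 10 in every library. Ccr3 was at 4, 1 and 2 in control libraries and 5, 3 and 1 in LPS libraries. The sum was at 319 to 385 in control, 182 to 305 in oxLDL, 104 to 125 in LPS and 58 to 107 in oxLDL+LPS libraries. It was lower with LPS, as Timp2 and Mmp19 were. The part of eosinophils in the values of Timp2 and Mmp19 was not tested. In bulk libraries, fewer cells of a type and less RNA per cell cannot be told apart.

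**Figure D4:**
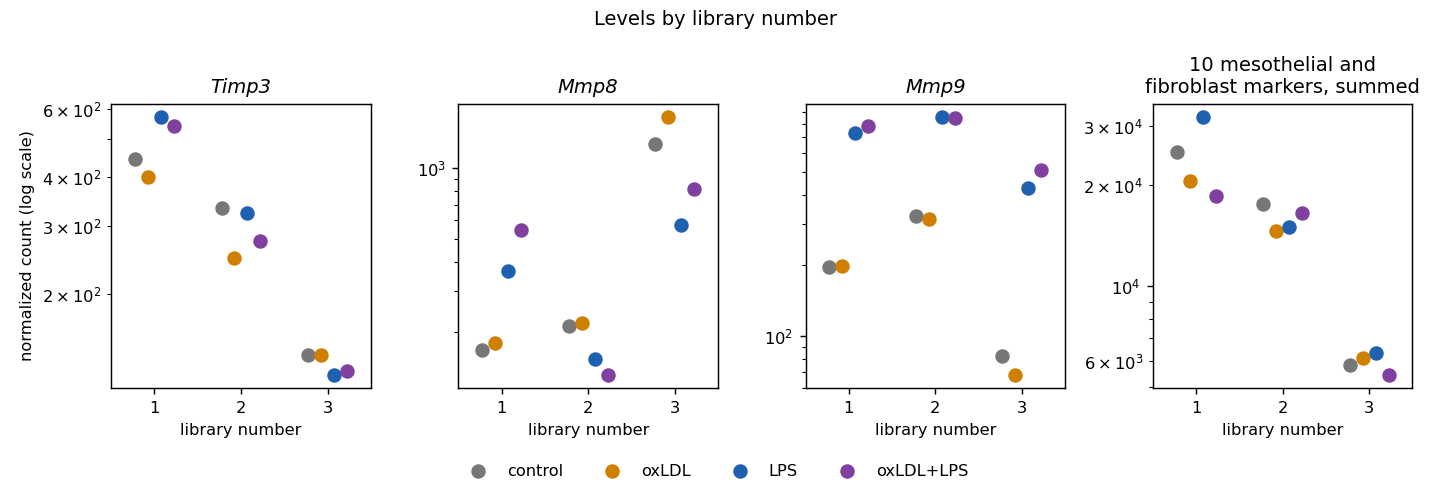
Normalized counts (vertical axes, log scale) of Timp3, Mmp8, Mmp9 and of the sum of 10 mesothelial and fibroblast markers, by library number, with the color giving the group. Timp3 and the marker sum fall into 3 separate ranges by number, lowest in number 3 (124 to 140 and 5432 to 6310), while Mmp8 is highest in number 3 in every group.

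The genes of the same pathway that are no members were described by list, and the counts of each list stand against the shares over all genes, which were 61.7% for LPS against control (31.4% higher, 30.3% lower) and, with the block, 4.7% for oxLDL against control and 13.2% for oxLDL+LPS against LPS (4.41% higher, 8.75% lower). For LPS against control the median log2 fold change was 0.29 for the other MMPs and Timp4, 1.33 for activators, inhibitors and receptors, 1.42 for the plasminogen system, -0.20 for ADAM and ADAMTS proteases, 0.06 for lysosomal proteases and cystatins, 0.09 for matrix proteins and 1.67 for AP-1 and NF-κB subunits, against 0.00 for all genes. For oxLDL+LPS against LPS the medians of the 7 lists lay between -0.32 (AP-1 and NF-κB subunits) and -0.04, against -0.01 for all genes. Of 18 genes in the list of other MMPs and Timp4, 9 passed the filter for LPS against control, and no library of these 2 groups exceeded 126 for any of the 18. LPS raised Mmp25, Mmp28 and Mmp3 and lowered Mmp27. Mmp25, a membrane MMP of leukocytes, was at 2, 2 and 2 in control libraries and 49, 37 and 103 in LPS libraries (limma adjusted p = 0.000114), and at 24, 44 and 29 in oxLDL+LPS libraries. Mmp28, or epilysin, went from 17.3 ± 7.1 to 51.3 ± 9.1 (adjusted p = 0.00558). Mmp3, stromelysin 1, was at 21.0 ± 7.0 and 40.3 ± 14.6 (adjusted p = 0.0895), and Mmp27 at 42.3 ± 14.2 and 19.0 ± 7.9 (adjusted p = 0.0419). Mmp2, whose proenzyme MMP14 activates, was at 69, 83 and 28 in control libraries and 54, 126 and 44 in LPS libraries and was not called, and Timp4 was at 0 to 4 in every library.

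Among 12 activators, inhibitors and receptors of MMPs, 8 were tested for LPS, and 6 rose and 1 fell. Lcn2, a lipocalin that binds MMP9, went from 14.3 ± 1.2 to 1607 ± 805 (limma adjusted p = 3.8e-06). Furin, the convertase that activates MMP14, went from 3557 ± 527 to 9417 ± 1192 (log2 fold change 1.41, SE 0.14, adjusted p = 9.78e-05). Thbs1, or thrombospondin 1, and Cd44, a docking site of MMP9 and MMP14, rose by 3.40 and 1.49 on the log2 scale. The 1 gene that fell was Lrp1, a receptor that takes up complexes of MMPs with TIMPs, at -1.17 on the log2 scale. In oxLDL+LPS against LPS none was called without the block, and Furin, Cd44 and Lcn2 were lower with it, at -0.64, -0.48 and -0.42 (adjusted p = 0.00619, 0.024 and 0.0725). Furin and Cd44 were also called in the interaction with the block within LPS state (adjusted p = 0.0458 and 0.0707). No gene was called in that fit without number 1 or without number 3, nor in the interaction with no block or with the number alone as a block. In oxLDL against control 0 of 7 were called in either fit.

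The plasminogen system, whose product plasmin activates proMMPs, was tested with 8 of 11 genes for LPS, and 6 rose and 1, Plgrkt, fell (-0.38). Serpinb2, an inhibitor of urokinase, went from 217 ± 104 to 6351 ± 1046 (limma adjusted p = 2.59e-05). In oxLDL+LPS against LPS, Serpinb2 and Plaur, the urokinase receptor, were lower with the block alone, at -0.84 and -0.55 (adjusted p = 0.00349 and 0.0154). Plau, or urokinase, was higher in oxLDL libraries than in control libraries, at 1436 ± 261 against 960 ± 276 (log2 fold change 0.61, adjusted p = 0.00104 with the block and 1 without it).

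Of 15 ADAM and ADAMTS proteases, 13 were tested for LPS, and 4 rose and 4 fell. Adamts4, an aggrecanase, went from 29.7 ± 19.4 to 689 ± 468, and Adam17, the TNF sheddase that TIMP3 inhibits, from 4495 ± 471 to 11271 ± 673 (log2 fold change 1.33 ± 0.11). Adamts9 went from 148 ± 83.1 to 502 ± 305, and Adam8, a protease of myeloid cells, from 13543 ± 1691 to 3625 ± 1010. With oxLDL, Adam19 was lower with the block in both states, at -0.44 without LPS and -0.58 with LPS (adjusted p = 0.0309 and 0.0567). In cells given LPS, Adamts9 was lower and Adam8 higher with the block alone, at -0.51 and 0.40 (limma adjusted p = 0.851 and 0.816 without the block).

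The 10 lysosomal cysteine proteases and cystatins gave 4 higher and 1 lower with LPS. The inhibitor Cst7 went from 1.33 ± 0.58 to 389 ± 171 and Ctsc, or cathepsin C, from 2148 ± 156 to 13327 ± 3020, while Ctsk, a collagen-cutting cathepsin, went from 14399 ± 1191 to 9731 ± 2809 (limma adjusted p = 0.0362). In oxLDL+LPS against LPS, Cst7 and Ctsc were lower with the block alone (-0.60 and -0.37).

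Of 18 matrix proteins, the substrates of these enzymes, 17 were tested for LPS and 3 rose, whereas 7 rose with the block, with which 8934 of 13006 genes were called. Vcan, or versican, went from 102 ± 40.2 to 4313 ± 750 (log2 fold change 5.47 ± 0.30) and Spp1, or osteopontin, from 28899 ± 7176 to 62576 ± 4094 (1.15 ± 0.21). In oxLDL+LPS against LPS, Vcan, Spp1 and Fn1 were lower with the block alone, at -0.93, -0.76 and -0.52 (adjusted p = 0.0203, 0.0336 and 0.0453). This list shares Col1a1, Col1a2 and Col3a1 with the fibroblast markers, and none of the 3 was called in either of these comparisons with or without the block.

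Of 12 subunits of AP-1 and NF-κB, 11 were tested for LPS, of which 9 rose and Fos and Jun fell. Nfkb2 and Nfkb1 rose by 4.74 ± 0.20 and 3.23 ± 0.16 on the log2 scale and Junb by 2.48 ± 0.10, while Fos went from 385 ± 80 to 148 ± 84. With the block, oxLDL libraries had more Fos (0.66, adjusted p = 0.00568) and less Rel (-0.34, adjusted p = 0.0571) than control libraries. In oxLDL+LPS against LPS, 6 of the 11 were lower with the block and Fos was higher, where 8.75% and 4.41% of all genes were lower and higher. Fos was at 0.81, Rel at -0.64, Fosl2 at -0.60 and Junb at -0.54 (adjusted p = 0.0389, 0.00529, 0.00619 and 0.0134).

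The genes most like each member were taken by Pearson's r over the 12 libraries on log2(normalized count + 1), among 13465 genes. The 12 libraries fall into 2 clusters by LPS and share pools, so r is a measure of likeness and carries no test. Mmp13 was most like Fnbp1l, Ifnar1 and Snx2 (r = 0.996, 0.994 and 0.994). Fnbp1l, an actin regulator, was at 2889, 2017 and 3634 in LPS libraries and 1560, 1386 and 1685 in oxLDL+LPS libraries, and was thus lowest in number 2 of both groups, as Mmp13 was. Mmp14 was most like Trp53i11, Glipr2 and Marcksl1 (r = 0.995, 0.994 and 0.994). Mmp19 was most like Bin1, Fos and Herc3 (r = 0.984, 0.976 and 0.966). Fos was at 437, 292 and 425 in control libraries, 703, 372 and 824 in oxLDL libraries, 245, 94 and 105 in LPS libraries and 454, 107 and 268 in oxLDL+LPS libraries, with number 2 the lowest in all 4 groups, as for Mmp19.

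Timp1 was most like Creb3l1, Ccl7 and Hnrnpa3 (r = 0.987, 0.980 and 0.979). Ccl7, a monocyte chemokine, was at 2168, 2452 and 1938 in LPS libraries and 479, 1963 and 381 in oxLDL+LPS libraries, again with number 2 the highest. Timp2 was most like Ctdsp2, Oxct1 and Daglb (r = 0.996, 0.994 and 0.994), and Mmp9 was most like Scin, Slc2a1 and Mif (r = 0.968, 0.961 and 0.954). Scin was at 0 to 3 in the libraries without LPS and at 5 to 15 in those with LPS, so its r rests on low values. Mmp8, Mmp12 and Timp3 varied by less than 1 on the log2 scale between group means and were not ranked.

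The members lie on 6 chromosomes of GRCm38. Mmp13 (chr9:7272514-7283331), Mmp12 (chr9:7344381-7369499) and Mmp8 (chr9:7558456-7568485) lie in 1 cluster of MMP genes on chromosome 9, and of these 3 neighbors only Mmp13 was called with LPS. Timp3 (chr10:86300372-86349506) and Mmp19 (chr10:128790910-128800824) lie on chromosome 10, Mmp9 (chr2:164940780-164955850) on 2, Mmp14 (chr14:54431612-54445364) on 14, Timp2 (chr11:118301069-118355740, minus strand) on 11 and Timp1 (chrX:20870166-20874735) on X. Timp1 and Timp3 lie within Syn1 and Syn3, which run on the other strand and were at 87 to 299 and 2 to 11, and whether counting used the strand is not stated. Timp2 overlaps Cep295nl on its own strand and Mmp19 overlaps Tmem198b on the other (72 to 291), so these values carry the uncertainty of shared reads.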

How the data were processed

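The authors prepared poly(A) libraries with a directional kit, sequenced them as paired 150-bp reads, cleaned them with Trimmomatic 0.32, mapped them to the mouse build GRCm38 (mm10) by STAR 2.5.1b and assigned them to GENCODE genes by featureCounts. The deposited signal holds integers for 43278 symbols (18273 at 0 in every library; 25 turned into dates by a spreadsheet). From the spacing of low values, each column is a read count divided by 1 factor and rounded. Reads were not recovered, and no count model was run. The authors' scaling was kept.

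Groups were compared with limma 3.58.1 (R 4.3.3) on log2(value + 1), with a trend in the variance, among genes that reached 10 in 3 or more libraries of the fit, with Benjamini-Hochberg adjustment over all genes and calls at an adjusted p under 0.1. Fold changes on this scale are understated for low genes. Each pairwise fit held 6 libraries and the interaction 12. The fit was tested on simulated data with 200 changed genes, and the outcome is not given here. That simulation varied no library scaling and gave both groups the same pools, unlike number 1 across LPS. Values are mean ± SD (n = 3), and log2 fold changes are given ± SE. Permutation tests were exact and two-sided.

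Library numbers were checked for pairing by the correlation, over 11170 genes, of deviations from the group means. Same-numbered libraries correlated at 0.691 to 0.731 between control and oxLDL, 0.663 to 0.733 between LPS and oxLDL+LPS, and above 0.1 in every other pair of groups, so a fit with the number as a block is given where it changes a call. Number 1 is an exception across LPS, by its sex-linked genes.

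Members and lists were chosen with earlier results of these data known. From each list, at most 4 genes per comparison were named, from among the called genes with the largest fold change. Not every called gene with a larger change than a named gene was itself named. The values of 1 listed gene are not reported here. Mmp2, Timp4, Lrp1, Plgrkt, Fos, Jun, Col1a1, Col1a2 and Col3a1 were named outside that rule after their values were seen, as genes with a stated link to a member, as the few that fell with LPS or as genes of a second list. Likeness was taken for members whose group means spanned over 1 on the log2 scale. Alternatives changed the block, pseudocount, filter, scaling, libraries in the fit, variance trend and each library or number left out.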

Additional observations from a re-analysis of the deposited data

Results flagged for a closer look

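The effect of oxLDL on Mmp13 differed with and without LPS in 1 of 3 fits of the interaction. With a block for the library number within each LPS state, the difference was -1.28 on the log2 scale (SE 0.24, limma adjusted p = 0.0672). Without a block the same difference had an SE of 0.36, and with 1 block per number an SE of 0.32 and an adjusted p of 0.655. With the block within LPS state, the call was lost without number 1 (-1.44, adjusted p = 0.688) and without number 3 (-0.80, adjusted p = 0.544), and it held without number 2 (-1.61, adjusted p = 0.00402). Groups of 3 libraries are too small for a test of single libraries that stand apart.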

How the results depend on the processing

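All 6 calls of members for LPS against control held under every alternative tried. Without LPS no member was called unless the number was a block, and with LPS the 4 blocked calls of oxLDL+LPS against LPS rested on numbers 1 and 3. Over all genes, the replicate block gave 599 calls for oxLDL against control, 1680 for oxLDL+LPS against LPS and, within LPS state, 140 for the interaction, where no block gave 0. It changed no call of a member other than those given in the report. A fit to all 12 libraries gave 29 calls for oxLDL+LPS against LPS. Leaving out libraries gave 0 to 91 calls for oxLDL+LPS against LPS and 0 to 6 for the interaction. With the replicate block, in alternatives chosen after seeing the data, leaving out a number gave 129 to 1283 calls for oxLDL against control, 0 to 2945 for oxLDL+LPS against LPS, 0 to 9 for the interaction and 0 to 760 for the interaction within LPS state. Leaving out number 1, 2 or 3 gave 235, 129 and 1283 calls in the first of these and 70, 2945 and 0 in the next. Fits with the block and a number left out held 2 libraries per group, so their counts and p-values are rough. Equal totals turned the sign of members that were not called: Mmp12 was at -0.35 for LPS against control and -0.38 for oxLDL+LPS against oxLDL, Timp3 at -0.43 and -0.24 in the same comparisons, and Timp2 at 0.0001 for oxLDL+LPS against LPS. In the second of these comparisons equal totals moved the median of all genes by -0.40 and gave 2052 higher and 6608 lower calls in place of 3626 and 3389. With libraries left out, log2 fold changes of members that were not called crossed 0. For LPS against control the ranges were -0.81 to 0.75 for Mmp8 and -0.45 to 0.64 for Timp3. For oxLDL against control they were -0.85 to 1.09 for Mmp8, -0.64 to 0.52 for Mmp9, -0.32 to 0.55 for Timp1 and -0.68 to 0.19 for Timp3. For oxLDL+LPS against LPS they were -0.25 to 1.07 for Mmp8, -0.19 to 0.34 for Mmp9 and -0.69 to 0.44 for Timp3. For oxLDL+LPS against oxLDL they were -0.88 to 0.97 for Mmp8, -0.18 to 0.28 for Mmp12 and -0.36 to 0.68 for Timp3. Where fewer libraries or genes do not account for a change, the cause was not tested. Counting error is largest for the lowest values, such as 61 for Timp1 and 68 for Mmp9, and with 3 libraries per group the spread itself is known only roughly.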
